A study of Mus musculus with 90 samples.

Results

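The 39 genes described here encode enzymes of serine, one-carbon and nucleotide metabolism, with the methionine and polyamine enzymes that share their intermediates. They were taken by symbol from a given list, and all 39 were found among the 23420 genes of a table of gene counts. The table holds 90 mouse libraries in 30 groups. The Treg libraries came from wild-type mice and were sorted by expression of the cytokine IL10 or of Ebi3, a subunit of IL35. From tumours (TIL), from non-draining lymph nodes (ndLN) and from a source labelled naive T cells (Naive), the IL10, Ebi3 and double-negative (DN) Tregs were each measured in 3 libraries, as were effector T cells (Teff) of the naive source. The CD8 T cells came from mice labelled DKO (4 libraries a population), Il10 (2), Ebi3L (3) and yfp (3); per the series' design text the knockouts are Treg-specific and affect IL10, IL35 or both, so the CD8 T cells were not themselves the targeted cells. Here yfp, which names no knocked-out gene, is the genotype the others are set against. Each genotype gave 5 populations: CD8 T cells of the non-draining node (NDLN) and, from the tumour, PD1-negative TIM3-negative (NEG), PD1-intermediate TIM3-negative (INT), PD1-high TIM3-negative (SP) and PD1-high TIM3-positive (DP) cells. No source used here names the tumour line, the promoter that drives the deletion or the ages of the mice. The labels do not say which libraries come from separate mice, so each p-value measures only how far these libraries spread, which may be technical.

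Serine is made from a glycolytic intermediate by Phgdh, Psat1 and Psph, and serine hydroxymethyltransferases pass one of its carbons to folate. Folate-bound carbons are built into the purine ring and into thymidylate, and dividing lymphocytes rely on this route, since they must make nucleotides for each round of DNA replication. Purines can also be salvaged from free bases, and AMP deaminases, guanine deaminase and nucleoside phosphorylases take nucleotides apart.

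Library totals were 9729837 to 20217970 counts in the Treg series and 19215118 to 47701813 counts in the CD8 series, and 3 counts correspond to 0.0629 to 0.308 CPM (counts per 1000000 counts of the library). The labels were checked against the genes used to sort. Il10 averaged 97.9 to 131 CPM in the groups labelled IL10 and at most 2.36 CPM in the other Treg-series groups, and Ebi3 averaged 7.47 to 9.91 CPM in the groups labelled Ebi3 and at most 2.66 CPM in the others. Foxp3 averaged 45.9 to 93.1 CPM in Tregs and 24.4 ± 7.41 CPM (SD, n = 3) in the Teff group, which was thus not free of it. Pdcd1, which encodes PD1, averaged 1112 to 1569 CPM in DP cells and 8.996 to 43.9 CPM in NEG cells.

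The promoters shown next hold the E-box letters CACGTG, the core of sites that Myc binds, and belong to 3 genes that rose in DP cells of all 4 genotypes (Paics, Impdh2, Nme1) and 1 that passed in the Il10 genotype alone (Atic). Each is 250 bases before to 50 bases after the annotated start, 5′ to 3′ on the gene's strand, from RefSeq on GRCm38.p6, with the E-box letters in capitals.
Paics, chr5:76951052-76951351, plus strand: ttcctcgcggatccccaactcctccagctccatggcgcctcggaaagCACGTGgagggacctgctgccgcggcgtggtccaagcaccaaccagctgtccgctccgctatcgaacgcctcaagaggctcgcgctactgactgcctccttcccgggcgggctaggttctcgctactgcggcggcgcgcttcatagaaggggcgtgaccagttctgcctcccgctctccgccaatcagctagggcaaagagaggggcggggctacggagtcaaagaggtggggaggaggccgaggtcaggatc
Impdh2, chr9:108560186-108560485, plus strand: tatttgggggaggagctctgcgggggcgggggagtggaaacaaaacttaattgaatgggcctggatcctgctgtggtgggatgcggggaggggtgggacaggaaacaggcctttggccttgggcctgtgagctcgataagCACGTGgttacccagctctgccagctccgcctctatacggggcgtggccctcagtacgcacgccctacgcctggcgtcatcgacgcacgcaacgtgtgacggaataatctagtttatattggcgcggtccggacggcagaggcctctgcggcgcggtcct
Nme1, chr11:93967976-93968275, minus strand: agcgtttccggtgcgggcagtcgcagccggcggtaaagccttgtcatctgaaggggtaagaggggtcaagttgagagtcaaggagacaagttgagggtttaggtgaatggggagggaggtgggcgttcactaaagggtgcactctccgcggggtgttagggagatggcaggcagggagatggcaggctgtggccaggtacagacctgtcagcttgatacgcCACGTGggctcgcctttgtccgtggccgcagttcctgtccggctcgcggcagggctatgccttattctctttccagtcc
Atic, chr1:71556906-71557205, plus strand: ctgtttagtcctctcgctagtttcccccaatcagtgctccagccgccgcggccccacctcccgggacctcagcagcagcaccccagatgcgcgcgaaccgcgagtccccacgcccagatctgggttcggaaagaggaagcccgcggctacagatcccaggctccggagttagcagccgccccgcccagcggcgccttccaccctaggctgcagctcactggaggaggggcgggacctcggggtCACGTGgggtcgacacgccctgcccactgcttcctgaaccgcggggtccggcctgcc
CACGTG reads the same on both strands. It occurred in a promoter of 5 of the 33 members with a RefSeq promoter entry (15.2%), the fifth being Ampd3, and in 8.09% of the 27025 genes with an entry. The letters TGATGNAA, searched on both strands as a form of the site that Atf4 binds, occurred in 1 of 33 members (Prps1; 3.03%) and in 4.51% of all genes. No member promoter held both motifs. A match describes letters only. Pnp2, Aldh1l2, Ampd1, Srm, Pfas and Dhodh had no entry.

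**Figure D1:**
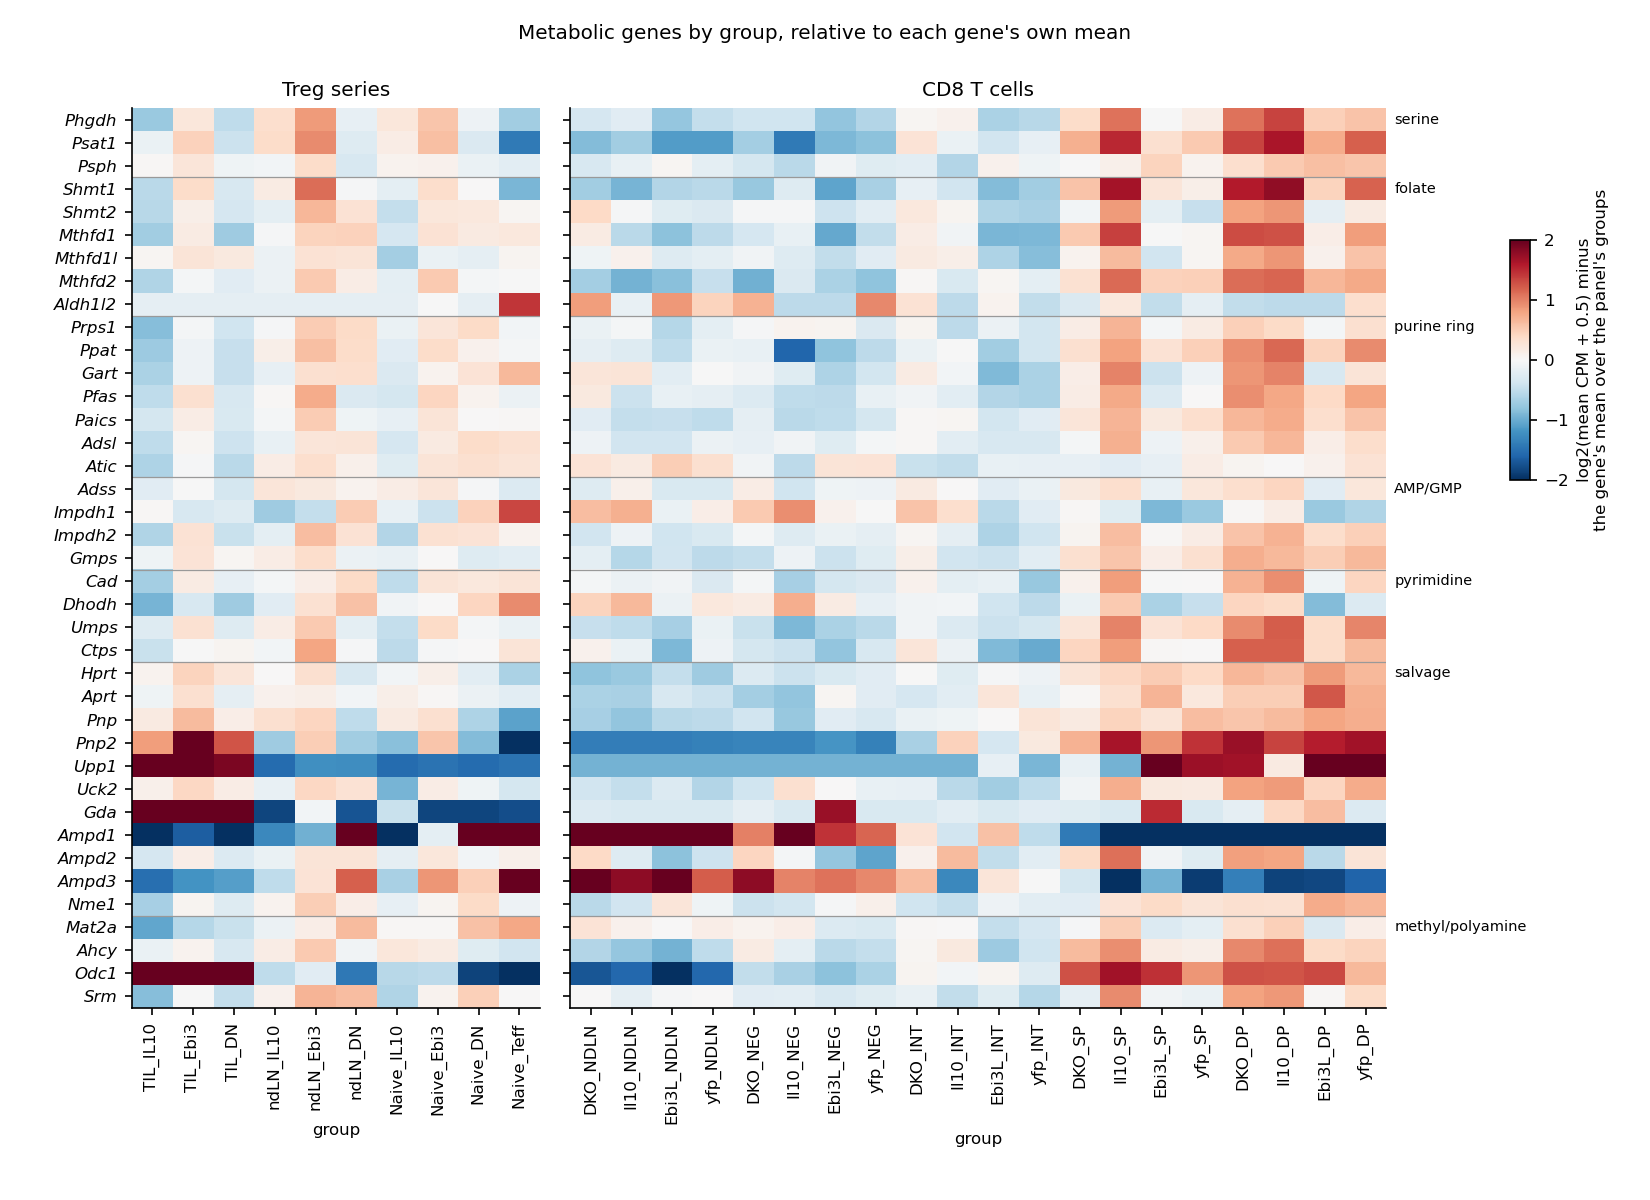
Colour gives the log2 of the group mean (CPM + 0.5) minus the gene's mean over the groups of its panel, for all 39 genes (down, by role) and the 10 Treg-series and 20 CD8 groups (across). Phgdh, Psat1 and Odc1 are red in DP cells, while Ampd1 and Ampd3 are blue in DP cells and Upp1 is red in DP cells of all genotypes but Il10.

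In tumour CD8 T cells 17 of the 39 members were higher in DP than in NEG cells in all 4 genotypes. The share of all genes that rose in all 4 was not counted, so the 17 cannot be set against it. In DKO mice 28 members rose and 2 fell of 39 tested (16.6% of all genes tested rose and 13.3% fell, 29.9% in all). In Il10 mice 26 rose and 0 fell (background 11.6% and 9.69%, 21.3% in all), and in Ebi3L mice 21 rose and 4 fell (background 14.5% and 12.8%, 27.3% in all). In yfp mice 24 rose and 2 fell of 38 tested (Gda was too low to test; background 17.2% and 16%, 33.2% in all). The yfp count comes from a different fit, of all 15 yfp libraries with a batch term, whereas in the other 3 genotypes DP and NEG libraries were blocked by source. With the set, which is the source in yfp mice, as a replicate block, 28 members passed there. These counts use edgeR's quasi-likelihood test at a Benjamini-Hochberg adjusted p of 0.05 over all genes, as does every call below. The median log2 fold change of the members was 0.88 in DKO, 1.17 in Il10, 0.77 in Ebi3L and 0.92 in yfp mice. Over all genes tested it was 0.03, 0.18, 0.0029 and 0.02 in the same genotypes, so that fold changes in the Il10 genotype are set against a shift of 0.18. The genes that rose in all 4 genotypes numbered 17: Phgdh, Psat1, Psph, Shmt1, Mthfd1, Mthfd1l, Mthfd2, Paics, Impdh2, Gmps, Umps, Hprt, Aprt, Pnp, Nme1, Ahcy and Odc1. Within the 12 sources that each gave a DP and a NEG library, 24 of the 39 genes had a higher CPM in the DP library every time. Impdh1, Ampd1 and Ampd3 had a lower one every time. The share of all genes that did so was not counted, so the 24 cannot be set against it. Leaving out yfp replicate 3 reduced the yfp count to 13 rises and 1 fall, and leaving out Il10 replicate 1 reduced the Il10 count to 14 rises. The NEG library of Il10 replicate 1 held counts for 10400 genes, the fewest of the 90 libraries. That of Il10 replicate 2 held counts for 12528 genes at a similar total (24784258 against 24262104 counts). Fold changes in the Il10 genotype rest on these 2 NEG libraries.

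Transcripts of proliferating cells moved with this difference. The summed level of 26 cell-cycle genes was 8679 ± 1447 CPM in DKO DP cells and 2202 ± 1354 CPM in DKO NEG cells (SD, n = 4 each), and 8593 ± 2120.2 CPM in yfp DP cells and 2047 ± 1306 CPM in yfp NEG cells (SD, n = 3 each). It averaged 10351 CPM in DP and 1537 CPM in NEG cells of Il10 mice, and 5826 CPM in DP and 1106 CPM in NEG cells of Ebi3L mice. Of these 26 genes 23 rose in DKO, Il10 and Ebi3L mice and 17 in yfp mice, and none fell. A sum over 6 B cell genes, by contrast, averaged 5.66, 1.16, 8.24 and 0.735 CPM in DP cells of DKO, Il10, Ebi3L and yfp mice, and 33.1, 20.9, 41.6 and 41.1 CPM in their NEG cells. The part of either in the metabolic genes' difference was not tested, and in these bulk libraries fewer cells of a kind and less RNA per cell cannot be told apart.

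**Figure D2:**
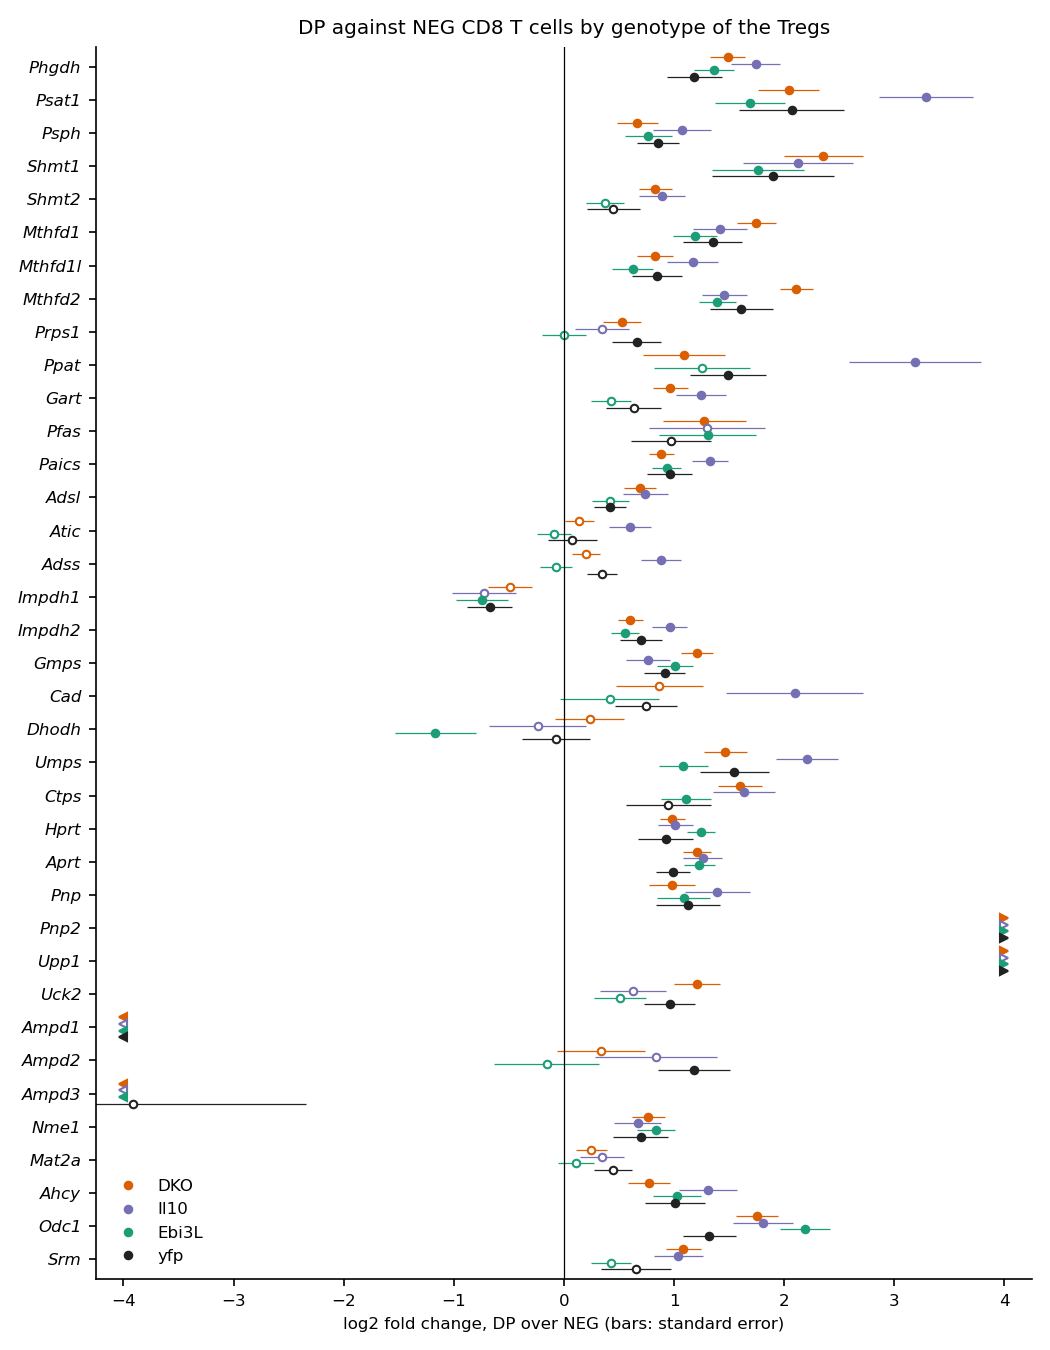
The log2 fold change of DP over NEG cells (across) is drawn for each member but Aldh1l2 and Gda (down) in 4 genotypes (colours), with bars for the standard error, filled points for adjusted p under 0.05 and triangles for values beyond the axis. The 3 serine genes and the folate genes drawn lie right of 0 in each genotype, and Impdh1, Ampd1 and Ampd3 lie left of it.

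All 3 genes of serine synthesis rose in all 4 genotypes. Psat1, the aminotransferase of the pathway, measured 269, 440.1, 282 and 199 CPM in the DKO DP libraries, against 64.4, 105, 51.5 and 69.1 CPM in the DKO NEG libraries. In yfp mice it measured 326, 266 and 204 CPM in DP cells, against 117, 31.3 and 48.4 CPM in NEG cells. In neither genotype did the groups overlap. Psat1 measured 372 and 347 CPM in Il10 DP cells, against 19.9 and 66.9 CPM in Il10 NEG cells, and 248, 187 and 148 CPM in Ebi3L DP cells, against 66.2, 63.4 and 57.1 CPM in Ebi3L NEG cells, again with no overlap. Its log2 fold change was 2.04 ± 0.28 (SE; adjusted p = 0.000163) in DKO, 3.29 ± 0.42 (adjusted p = 0.000292) in Il10, 1.69 ± 0.32 (adjusted p = 0.00179) in Ebi3L and 2.07 ± 0.47 (adjusted p = 0.00633) in yfp mice. Phgdh, the dehydrogenase that commits glycolytic carbon to serine, rose by 1.49, 1.74, 1.36 and 1.18 on the log2 scale in DKO, Il10, Ebi3L and yfp mice. Psph, the phosphatase of the last step, rose by 0.67 to 1.07.

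Of the 6 folate genes, 5 rose in DKO and Il10 mice and 4 in Ebi3L and yfp mice, and none fell. Shmt1, the cytosolic hydroxymethyltransferase, measured 152, 203, 165 and 115 CPM in DKO DP cells, against 30.9, 28.3, 29.96 and 33.7 CPM in DKO NEG cells. It measured 151, 124 and 85.1 CPM in yfp DP cells, against 59.1, 15.6 and 24.5 CPM in yfp NEG cells. Every DP library of these genotypes exceeded every NEG library of its own genotype. In Il10 mice Shmt1 measured 196 and 166 CPM in DP cells, against 58.2 and 28.97 CPM in NEG cells, and in Ebi3L mice 103, 66 and 45.8 CPM in DP cells, against 37.7, 8.15 and 28.8 CPM in NEG cells, likewise without overlap. Shmt1 had log2 fold changes of 2.36 ± 0.36 in DKO, 2.13 ± 0.50 in Il10, 1.77 ± 0.42 in Ebi3L and 1.90 ± 0.56 in yfp mice (SE; adjusted p = 0.000324, 0.00967, 0.00724 and 0.0212). Mthfd2, the mitochondrial dehydrogenase and cyclohydrolase, rose by 2.11, 1.46, 1.39 and 1.61 in the same order of genotypes. Mthfd1, its cytosolic counterpart, rose by 1.19 to 1.74, and Mthfd1l, which releases formate in mitochondria, by 0.62 to 1.17. The mitochondrial Shmt2 passed in DKO (0.83) and Il10 mice (0.89), with 0.38 ± 0.17 in Ebi3L and 0.45 ± 0.24 in yfp mice, where it did not pass. Aldh1l2, a mitochondrial folate dehydrogenase, stayed under 3 CPM in every CD8 library and was too low to be tested in the Treg series, where only Teff (0.682, 0 and 2.38 CPM) and 1 Naive Ebi3 library held counts.

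Among the 7 purine-ring genes 6 rose in DKO, 5 in Il10, 2 in Ebi3L and 4 in yfp mice, and none fell. Ppat, the committed step, measured 239 and 228 CPM in Il10 DP cells, against 10.7 and 59.3 CPM in Il10 NEG cells. It measured 199, 242 and 168 CPM in yfp DP cells, against 115, 31.2 and 74.6 CPM in yfp NEG cells. The Il10 NEG libraries differed more from each other than the DP libraries did, and no groups overlapped. The lower Il10 NEG value is that of replicate 1, the library with counts for the fewest genes. Ppat rose by 3.19 ± 0.60 in Il10 (adjusted p = 0.00355), by 1.49 ± 0.34 in yfp (adjusted p = 0.00507) and by 1.09 ± 0.37 in DKO mice (adjusted p = 0.0476). Pfas, which adds an amide nitrogen to the growing ring, measured 36.3, 36.6, 28.01 and 27.5 CPM in DKO DP cells, against 8.52, 14.4, 15.2 and 16.5 CPM in DKO NEG cells. In Ebi3L mice Pfas measured 27.7, 19.8 and 18.9 CPM in DP cells, against 21.8, 4.70 and 7.89 CPM in NEG cells. The Ebi3L groups overlapped, and the DKO groups did not. The log2 fold change of Pfas was 1.27 ± 0.38 in DKO (adjusted p = 0.0207) and 1.30 ± 0.44 in Ebi3L mice (adjusted p = 0.0426). Paics, the carboxylase and synthase whose promoter is shown above, rose by 0.88, 1.32, 0.93 and 0.96 in DKO, Il10, Ebi3L and yfp mice. Paics and Ppat are divergent neighbours that share 272 annotated bases, and whether counting used strand is not given in the sources used here. Gart, which carries folate-dependent steps, passed in DKO (0.97) and Il10 mice (1.24), and Adsl in DKO (0.69), Il10 (0.74) and yfp mice (0.42). Atic, which closes the ring, passed in Il10 mice (0.60 ± 0.19, adjusted p = 0.0409) and measured 0.14 ± 0.14, -0.09 ± 0.16 and 0.08 ± 0.22 in DKO, Ebi3L and yfp mice, none of which passed.

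Of the 2 IMP dehydrogenases, which open the guanine branch, Impdh2 rose in all 4 genotypes and Impdh1 fell in 2. Impdh2 measured 334 and 276 CPM in Il10 DP cells, against 178 and 136 CPM in Il10 NEG cells, without overlap. Its log2 fold change was 0.96 ± 0.16 in Il10 (adjusted p = 0.00108), 0.60 in DKO, 0.56 in Ebi3L and 0.70 in yfp mice. Impdh1 fell in Ebi3L mice (log2 fold change -0.75 ± 0.24, adjusted p = 0.0315) and in yfp mice (-0.67 ± 0.21, adjusted p = 0.0208), with -0.49 ± 0.20 in DKO and -0.73 ± 0.29 in Il10 mice, which did not pass. Gmps, the GMP synthase downstream of both, measured 309, 399, 265 and 282 CPM in DKO DP cells, against 142, 137, 117 and 149 CPM in DKO NEG cells. It measured 286, 249.997 and 268 CPM in Ebi3L DP cells, against 136, 142 and 142 CPM in Ebi3L NEG cells, and 352, 305 and 234 CPM in yfp DP cells, against 211, 127 and 143 CPM in yfp NEG cells. In these 3 genotypes every DP library was above every NEG library. For Gmps the log2 fold change was 1.21 ± 0.14 in DKO, 0.76 ± 0.20 in Il10, 1.01 ± 0.16 in Ebi3L and 0.91 ± 0.19 in yfp mice. Adss, of the adenine branch, passed in Il10 mice (0.88 ± 0.18, adjusted p = 0.00401).

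For pyrimidines, Umps, the last enzyme of UMP synthesis, rose in all 4 genotypes. It measured 259 and 277 CPM in Il10 DP cells, against 40.5 and 82.6 CPM in Il10 NEG cells, and 245, 236 and 199 CPM in yfp DP cells, against 116, 50.1 and 72.8 CPM in yfp NEG cells. Neither pair of groups overlapped. Umps rose by 2.20 ± 0.28 in Il10, 1.46 ± 0.20 in DKO, 1.08 ± 0.22 in Ebi3L and 1.55 ± 0.31 in yfp mice. Ctps, the CTP synthase, measured 133, 149.9, 158 and 102 CPM in DKO DP cells, against 54.9, 61.4, 32.3 and 36.7 CPM in DKO NEG cells, and rose by 1.59 ± 0.20 there, by 1.63 in Il10 and by 1.11 in Ebi3L mice. Cad, which starts the pathway, passed in Il10 mice (2.10 ± 0.62, adjusted p = 0.0305). Dhodh, the mitochondrial step between Cad and Umps, went the other way in Ebi3L mice. It measured 28.4, 21.5 and 7.21 CPM in Ebi3L DP cells, against 42.2, 41.1 and 34.7 CPM in Ebi3L NEG cells, with no overlap (log2 fold change -1.17 ± 0.37, adjusted p = 0.0303). In DKO, Il10 and yfp mice its log2 fold change was 0.23 ± 0.31, -0.24 ± 0.44 and -0.08 ± 0.31, none of which passed.

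Several salvage enzymes rose, and 2 of the 3 AMP deaminases, Ampd1 and Ampd3, fell. Hprt and Aprt, which re-attach purine bases to ribose phosphate, rose by 0.92 to 1.24 and by 0.99 to 1.26 over the 4 genotypes, and Nme1, a nucleoside diphosphate kinase, by 0.67 to 0.83. Pnp, the purine nucleoside phosphorylase, measured 89.9 and 97.6 CPM in Il10 DP cells, against 32.8 and 38.3 CPM in Il10 NEG cells, and rose by 1.39 ± 0.30 there (adjusted p = 0.00532). Its near-identical neighbour Pnp2, which overlaps it on the same strand and may share its reads, averaged 3.81 ± 2.79, 2.83 ± 1.82, 3.38 ± 1.24 and 3.68 ± 1.19 CPM in DP cells of DKO, Il10, Ebi3L and yfp mice, and at most 0.0748 ± 0.102 CPM in NEG cells. Uck2, the uridine and cytidine kinase, passed in DKO (1.21 ± 0.21) and yfp mice (0.96 ± 0.23). Upp1, the uridine phosphorylase, had no count in any NEG library. It measured 7.23, 12.4 and 12.2 CPM in Ebi3L DP cells, 3.12, 1.86, 2.35 and 3.02 CPM in DKO DP cells, 0.498 and 0.67 CPM in Il10 DP cells and 2.85, 1.01 and 9.698 CPM in yfp DP cells. Against the floor of 3 counts a library this is at least 97.4-fold higher in Ebi3L, 19.3-fold in DKO, 4.77-fold in Il10 and 41.6-fold in yfp mice, and it passed in all but the Il10 genotype (adjusted p = 0.0195 in Ebi3L, 0.0208 in DKO, 0.0135 in yfp and 0.129 in Il10 mice). Ampd1, an AMP deaminase best known from muscle, had no count in any DP library of DKO, Ebi3L or yfp mice, against 9.57, 9.73, 2.65 and 2.90 CPM in DKO NEG, 10.21, 5.54 and 9.73 CPM in Ebi3L NEG and 6.13, 7.69 and 6.99 CPM in yfp NEG cells. It was thus at least 60.5-fold lower in DKO, 93.2-fold in Ebi3L and 75.2-fold in yfp mice (adjusted p = 0.0111, 0.0167 and 0.00832). In Il10 mice Ampd1 measured 0 and 0.152 CPM in DP cells, against 23.7 and 3.83 CPM in NEG cells, and did not pass (adjusted p = 0.0968). Ampd2, the third, passed in yfp mice (1.18 ± 0.33), where it was higher. Ampd3, the deaminase known from red cells, fell in DKO and Ebi3L mice, where it averaged 0.364 ± 0.728 and 0.134 ± 0.232 CPM in DP cells, against 7.20 ± 7.64 and 4.24 ± 3.03 CPM in NEG cells (SD, n = 4 and 3). Ampd3 shares 11974 annotated bases with Rnf141 on the opposite strand, and whether counting used strand is not given in the sources used here.

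Odc1, which makes the polyamine putrescine, rose in all 4 genotypes. It measured 361, 315, 227 and 215 CPM in DKO DP cells, against 82.4, 72.98, 79.8 and 92.8 CPM in DKO NEG cells, and 388 and 165 CPM in Il10 DP cells, against 87.9 and 58.9 CPM in Il10 NEG cells. In Ebi3L mice it measured 381, 276 and 205 CPM in DP cells, against 55.6, 79.9 and 60.2 CPM in NEG cells, and in yfp mice 196, 202 and 144 CPM in DP cells, against 84.5, 85.9 and 52.7 CPM in NEG cells. No pair of groups overlapped. The log2 fold change was 1.75 ± 0.19 in DKO, 1.81 ± 0.27 in Il10, 2.19 ± 0.23 in Ebi3L and 1.32 ± 0.24 in yfp mice (SE; adjusted p = 2.4e-05, 0.00061, 2.0e-05 and 0.000828). Ahcy, which clears the product of methyl transfer, rose by 0.77 to 1.31 in all 4, and Srm, the spermidine synthase, by 1.08 in DKO and 1.04 in Il10 mice. Mat2a, which makes the methyl donor S-adenosylmethionine, passed in none, with log2 fold changes of 0.11 to 0.45.

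Between neighbouring populations of yfp mice few members passed, although most fold changes from INT to SP and from SP to DP were positive. NEG cells against NDLN cells gave 1 rise, Odc1 (1.03 ± 0.24, adjusted p = 0.0442), of 38 tested (background 1.56%). INT against NEG cells gave 0 (background 0.938%) by edgeR and 1 by DESeq2. By edgeR 2 of 38 members and 1697 of all 12791 genes had an unadjusted p under 0.05. SP against INT cells gave 2 rises (background 1.85% higher, 4.89% in all), Odc1 (1.10 ± 0.24, adjusted p = 0.0183) and Mthfd1l (0.90 ± 0.23, adjusted p = 0.0347). With the set as a replicate block 4 members passed, and the background of that fit is not given here. DP against SP cells gave 0 (background 1.21%) by edgeR and 1 by DESeq2. By edgeR 10 of 38 members and 1516 of all 12791 genes had an unadjusted p under 0.05. The median log2 fold change of the members was 0.03, -0.09, 0.53 and 0.48 over these 4 steps, against 0.02, 0.01, 0.03 and 0.0028 for all genes tested. Of the 38 members tested, 34 had a positive value from INT to SP and 37 from SP to DP. Neighbouring steps share libraries, so a high or low library counts in both. Odc1 measured 36.9, 51.5 and 26.9 CPM in NDLN, 84.5, 85.9 and 52.7 CPM in NEG, 95.6, 70.8 and 122 CPM in INT, 188, 244 and 206 CPM in SP and 196, 202 and 144 CPM in DP cells of yfp mice. NDLN lay below all tumour groups, NEG and INT overlapped, SP and DP lay above them and overlapped each other. The NEG against NDLN count was 0 without yfp replicate 1, 6 without replicate 2 and 0 without replicate 3, and the SP against INT count was 0, 0 and 1 in the same order.

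**Figure D3:**
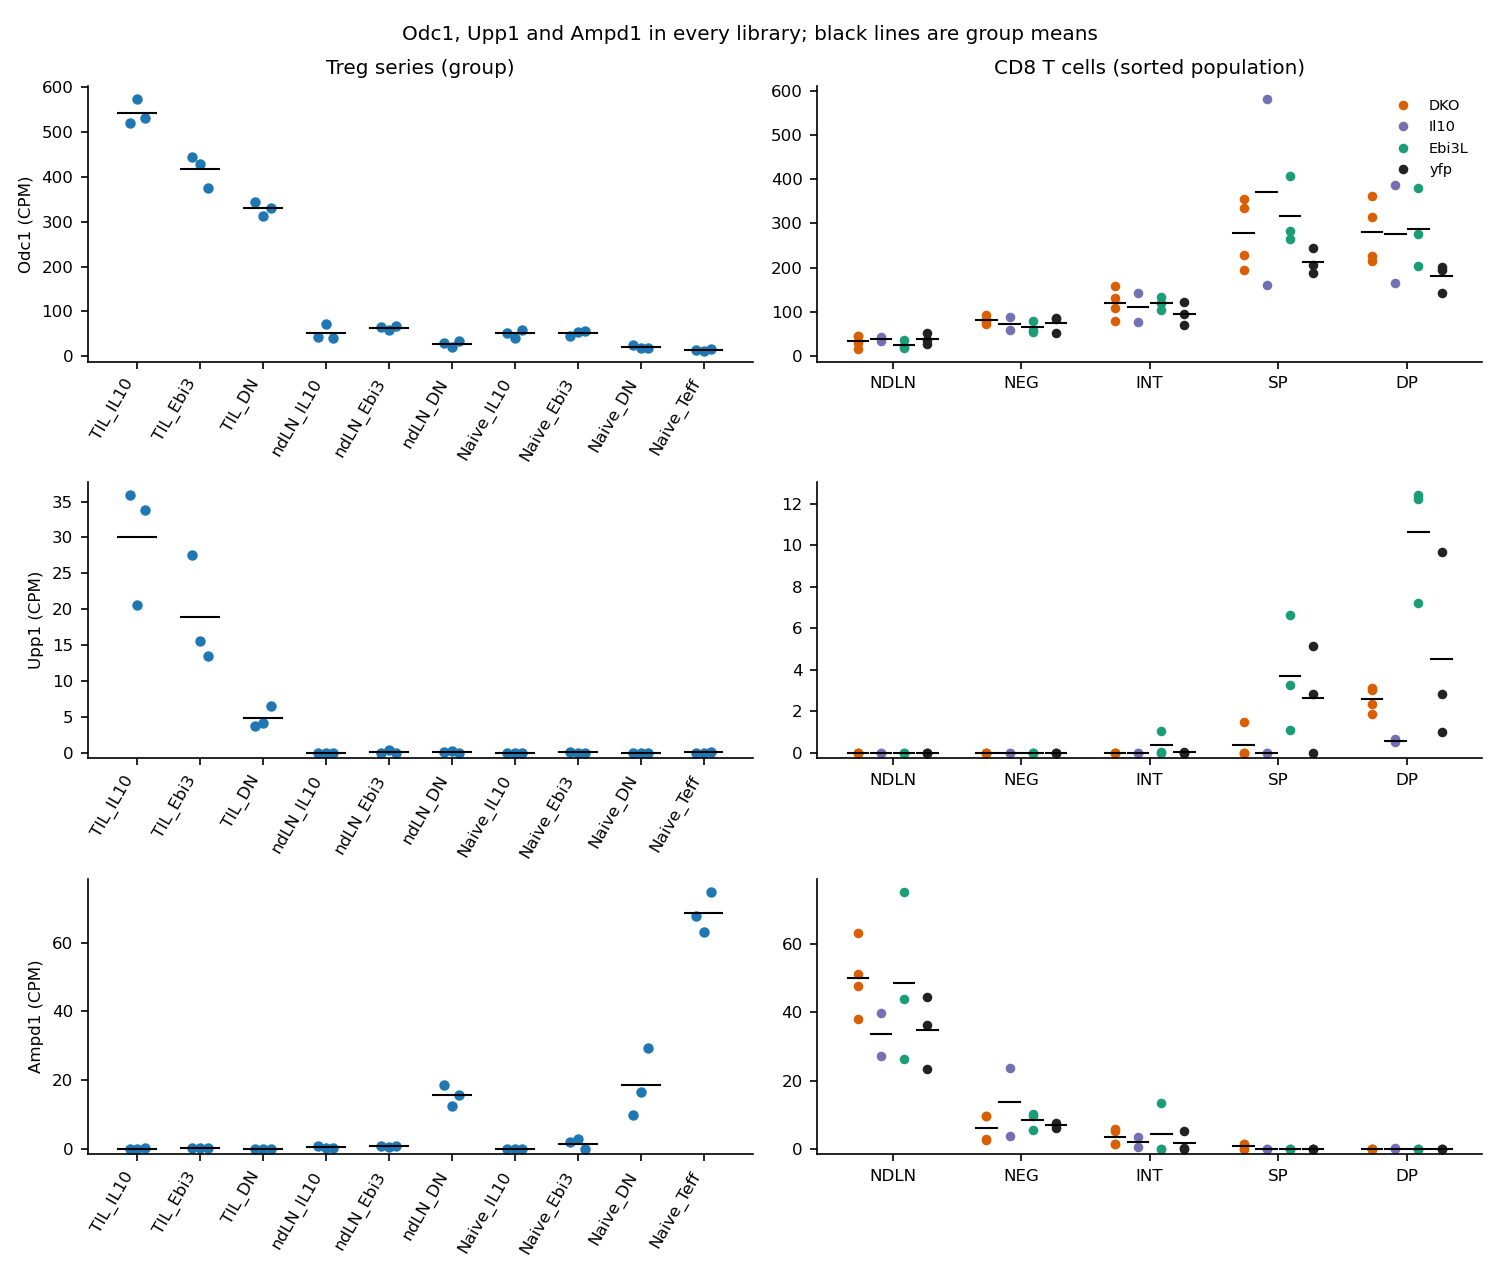
Points are CPM in every library and black lines are group means, for Odc1, Upp1 and Ampd1 (rows) in the Treg-series groups (left) and the CD8 populations by genotype (right). Odc1 is high in tumour Tregs and in SP and DP CD8 T cells, and Upp1 is highest in IL10 and Ebi3 tumour Tregs. Ampd1 is at or near 0 in tumour Tregs and DP cells, and also in IL10 and Ebi3 Tregs of the node, Naive IL10 Tregs and yfp SP cells.

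The genotype of the mice was compared within each CD8 population, to ask whether losing these cytokines in Tregs changed the CD8 T cells. No member passed in any of the 15 comparisons (DKO, Il10 and Ebi3L against yfp in each of 5 populations; 36 to 38 members tested). By edgeR 0 members passed, 0 to 5 had an unadjusted p under 0.05, and DESeq2 called 0 or 1. Among all genes, 156 to 973 had an unadjusted p under 0.05 by edgeR, of 12336 to 13255 tested. At most 1 gene passed among all genes tested in any of these comparisons (0.00811% in Il10 NDLN cells, 0.00775% in the INT cells of each genotype and 0% in the others). In DP cells the median standard error of a member's log2 fold change was 0.19 in DKO, 0.23 in Il10 and 0.19 in Ebi3L mice, which limits the differences that could be seen. The batches limit them too: 1, 1 and 3 for yfp, 1, 2, 1 and 1 for DKO, 2 and 1 for Il10 and 1, 3 and 3 for Ebi3L libraries. Batch 2 held no yfp library. With batch as a term, Il10 replicate 1 therefore bears on the comparison with yfp only through the DKO library of that batch. The median log2 fold change of the members in DP cells was 0.03 in DKO, -0.0014 in Il10 and -0.26 in Ebi3L mice. In the other 4 populations it lay between -0.16 and 0.11, apart from DKO SP cells, where it was -0.38 with 31 of 38 members negative (all genes -0.0018). There 5 members and 973 of all 13255 genes had an unadjusted p under 0.05 by edgeR. In DKO INT cells 30 of 37 members were positive, with a median of 0.11. On the CPM scale, which takes no account of batch, 18 of 39 members lay above every yfp library in both Il10 DP libraries and 2 lay below. In Il10 SP cells 9 lay above and 0 below, and in Il10 INT cells 9 above and 1 below. The share of all genes lying so was not counted, so these counts cannot be read as particular to the members. By edgeR 0% of all genes passed in Il10 DP and SP cells and 0.00775% in Il10 INT cells. Odc1 was 381, 276 and 205 CPM in Ebi3L DP cells, against 196, 202 and 144 CPM in yfp DP cells, a log2 fold change of 0.81 ± 0.24 (adjusted p = 0.747). These groups did not overlap, yet the difference did not pass over all genes. The difference between genotypes in the DP over NEG change itself was also tested, and 0 members passed for DKO, Il10 or Ebi3L against yfp by edgeR (0% of all genes), with 1, 1 and 4 members under an unadjusted p of 0.05 and 0 by DESeq2. Of all 13788 genes tested, 430, 681 and 480 had an unadjusted p under 0.05 by edgeR in that order. Without Il10 replicate 2, 3 members passed for Il10 against yfp in that test and 3 in NEG cells. The yfp libraries serve in each of these comparisons.

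**Figure D4:**
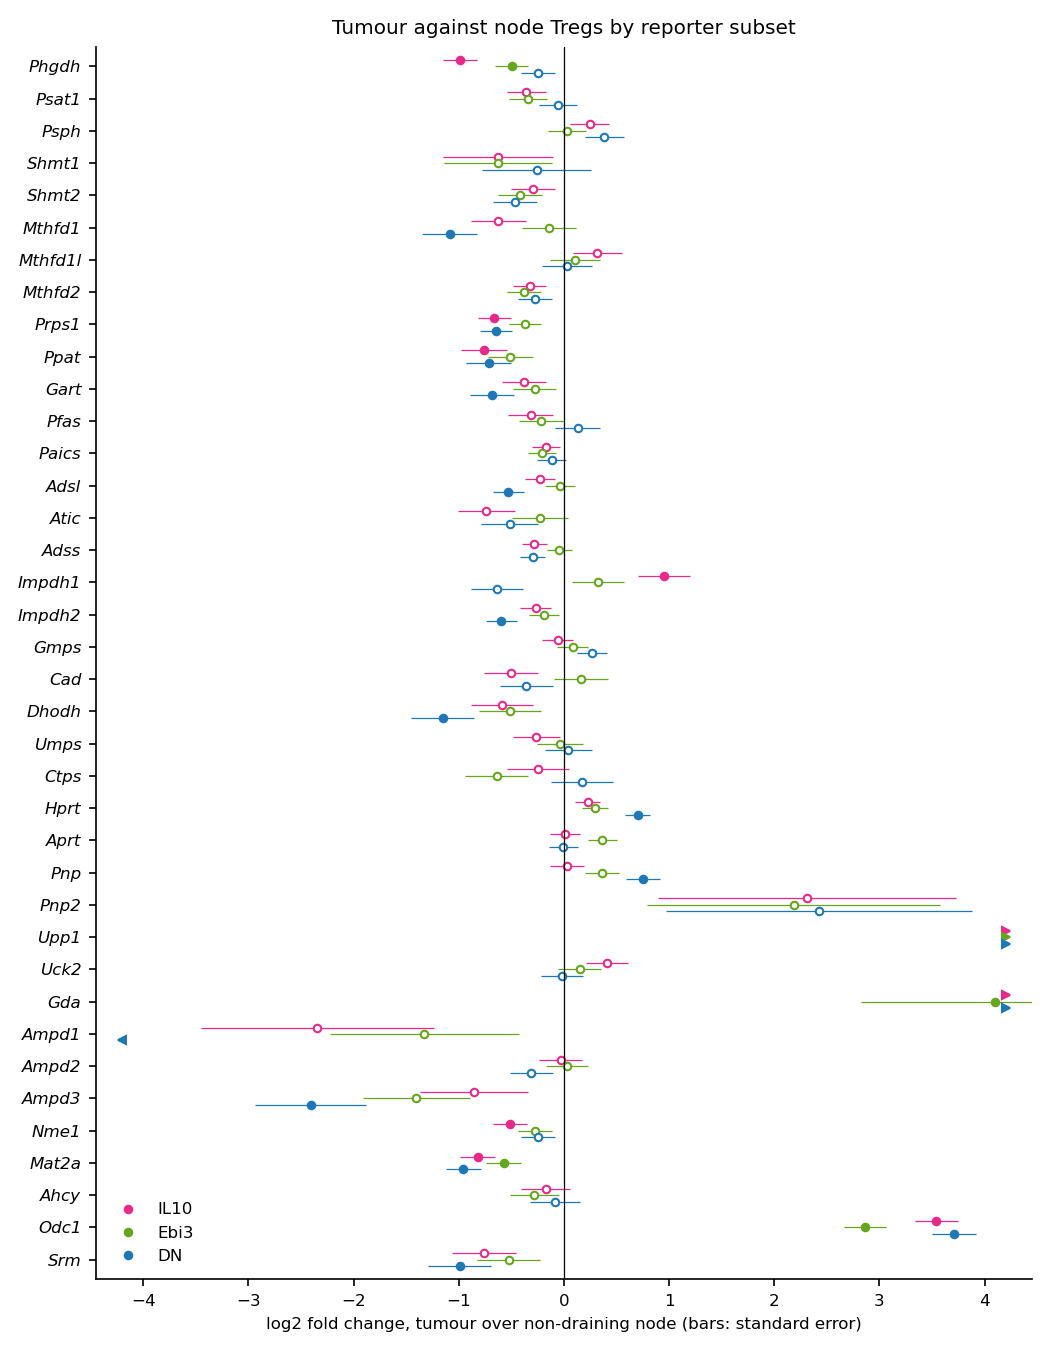
The log2 fold change of tumour over non-draining node Tregs (across) is drawn for each member tested (down) in IL10, Ebi3 and DN Tregs (colours), with bars for the standard error, filled points for adjusted p under 0.05 and triangles for values beyond the axis. Odc1, Upp1 and Gda lie far to the right in all 3 subsets, and Mat2a lies left of 0.

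Between Tregs of the tumour and of the non-draining node, Odc1, Upp1 and Gda rose and Mat2a fell in all 3 subsets. In DN Tregs 5 members rose and 11 fell of 38 tested (12.9% of all genes rose and 10.5% fell, 23.4% in all). In IL10 Tregs 4 rose and 5 fell (background 5.56% and 3.77%, 9.32% in all), and in Ebi3 Tregs 3 rose and 2 fell (background 6.24% and 4.01%, 10.3% in all). The median log2 fold change of the members was -0.28 in IL10, -0.20 in Ebi3 and -0.25 in DN Tregs, while over all genes tested it was -0.02, -0.04 and 0.01. Among the authors' deposited log2 values, tested with limma, 20 members passed in IL10 Tregs (4 higher, 16 lower) and 12 in Ebi3 Tregs (2 higher, 10 lower). Those values place the median of all genes at -0.20 in both. The share of all genes past the threshold in that fit is not given here, and the background above belongs to the edgeR fit. These counts therefore cannot be read as particular to the members. Summed proliferation transcripts were 3346 ± 635 CPM in TIL DN and 1784 ± 471 CPM in ndLN DN Tregs, 3137 ± 847 CPM in TIL IL10 and 3902 ± 80.9 CPM in ndLN IL10 Tregs, and 5551 ± 1434 CPM in TIL Ebi3 and 6337 ± 976 CPM in ndLN Ebi3 Tregs (SD, n = 3 each). Their part in the metabolic genes' values was not tested.

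Odc1 had the smallest adjusted p of the members in each subset. It measured 345, 314 and 329.99 CPM in TIL DN Tregs, against 28.98, 19.7 and 33.7 CPM in ndLN DN Tregs. It measured 521, 575 and 532 CPM in TIL IL10 Tregs, against 43.6, 72.6 and 40.6 CPM in ndLN IL10 Tregs, and 445, 429.6 and 376 CPM in TIL Ebi3 Tregs, against 65.9, 59.5 and 66.8 CPM in ndLN Ebi3 Tregs. The lowest tumour library exceeded the highest node library severalfold in each subset. On the log2 scale Odc1 rose by 3.71 ± 0.21 in DN (SE; adjusted p = 5.5e-13), 3.54 ± 0.21 in IL10 (adjusted p = 4.7e-12) and 2.86 ± 0.20 in Ebi3 Tregs (adjusted p = 6.2e-11). Upp1 measured 35.9, 20.5 and 33.9 CPM in TIL IL10 Tregs and had no count in ndLN IL10 Tregs, at least 154-fold higher against the floor of 3 counts a library. It measured 27.5, 15.5 and 13.5 CPM in TIL Ebi3 Tregs, against 0, 0.359 and 0 CPM in ndLN Ebi3 Tregs, and 3.76, 4.16 and 6.56 CPM in TIL DN Tregs, against 0.0662, 0.263 and 0 CPM in ndLN DN Tregs. Upp1 was thus at or near 0 in the node Tregs. Gda, guanine deaminase, measured 11.4, 20.4 and 24.4 CPM in TIL IL10 Tregs and had no count in ndLN IL10 Tregs, at least 96-fold higher. It measured 15.6, 26.2 and 16.8 CPM in TIL Ebi3 Tregs, against 1.56, 1.89 and 0.247 CPM in ndLN Ebi3 Tregs, and 21.1, 1.78 and 8.21 CPM in TIL DN Tregs, against 0.132, 0 and 0 CPM in ndLN DN Tregs. The rise passed in each subset (adjusted p = 0.000696 in IL10, 0.0445 in Ebi3 and 0.00183 in DN Tregs), though without replicate 1, 2 or 3 Gda no longer passed in Ebi3 Tregs.

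Apart from Ampd1 in DN Tregs, the falls were smaller than the rise of Odc1, and they lay in several roles. Mat2a had a log2 fold change of -0.96 ± 0.17 in DN, -0.82 ± 0.17 in IL10 and -0.57 ± 0.16 in Ebi3 Tregs (SE; adjusted p = 9.0e-05, 0.00122 and 0.0222). In DN Tregs, 4 of 7 purine-ring genes fell: Ppat, Gart, Adsl and Prps1, which makes the activated ribose the ring is built on. Ppat measured 53.1, 105 and 57.6 CPM in TIL DN Tregs, against 77.02, 151 and 155 CPM in ndLN DN Tregs, groups that overlapped. Its log2 fold change, with batches as a block, was -0.72 ± 0.22 (adjusted p = 0.0165), and Gart, Prps1 and Adsl gave -0.68, -0.65 and -0.53. Mthfd1 measured 23.6, 57.7 and 31.2 CPM in TIL DN Tregs, against 68.7, 116 and 68.9 CPM in ndLN DN Tregs (-1.09 ± 0.26, adjusted p = 0.00321). Impdh2 measured 88.6, 113 and 71.6 CPM in TIL DN Tregs, against 133, 209 and 115 CPM in ndLN DN Tregs (-0.60 ± 0.15, adjusted p = 0.00391). Neither pair overlapped. Dhodh measured 9.99, 13.5 and 18.9 CPM in TIL DN Tregs, against 36.9, 48.5 and 21.1 CPM in ndLN DN Tregs (-1.15 ± 0.30, adjusted p = 0.00584). Srm fell as well (-0.99 ± 0.30), as did Ampd3 (-2.41 ± 0.53), whereas Hprt (0.70 ± 0.12) and Pnp (0.75 ± 0.16) rose. Ampd1 had no count in TIL DN Tregs, against 18.7, 12.5 and 15.6 CPM in ndLN DN Tregs, which is at least 85.01-fold lower (adjusted p = 2.2e-06). In IL10 Tregs Impdh1 rose (0.95 ± 0.25, adjusted p = 0.0123), and the other falls were Phgdh (-0.99 ± 0.16, adjusted p = 8.9e-05), Ppat (-0.76), Prps1 (-0.66) and Nme1 (-0.52), and in Ebi3 Tregs Phgdh (-0.50 ± 0.16, adjusted p = 0.0441). Without replicate 3 the counts were 6 in IL10 and 2 in Ebi3 Tregs.

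The change from node to tumour was then compared between subsets with an interaction term. For IL10 against DN Tregs 2 members passed (background 1.98% higher, 2.5% lower, 4.49% in all), and for Ebi3 against DN Tregs 1 (background 1.61%). Impdh1 measured 22.99, 56.8 and 32.8 CPM in TIL IL10 Tregs, against 14.98, 37.6 and 14.9 CPM in ndLN IL10 Tregs, and 27.3, 42.1 and 23.3 CPM in TIL DN Tregs, against 41.5, 76.2 and 41.1 CPM in ndLN DN Tregs. Within each batch it was higher in the tumour for IL10 Tregs and lower for DN Tregs, and the difference of the log2 fold changes was 1.59 ± 0.35 (SE; adjusted p = 0.00634). Ampd1 measured 0, 0 and 0.212 CPM in TIL IL10 and 0.825, 0.391 and 0.215 CPM in ndLN IL10 Tregs, and 0.162, 0.308 and 0.303 CPM in TIL Ebi3 and 0.838, 0.539 and 0.791 CPM in ndLN Ebi3 Tregs, far below the ndLN DN values given above. Its adjusted p was 0.0299 for IL10 and 0.00564 for Ebi3 against DN Tregs. Both subsets are set against the same DN libraries. Without replicate 3 no member passed for IL10 against DN Tregs, and without replicate 1 or 2 none passed for Ebi3 against DN Tregs.

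Within the tumour, 3 members were higher in Ebi3 than in DN Tregs and none lower. Psat1 (0.88 ± 0.18, adjusted p = 0.0165), Phgdh (0.71 ± 0.16, adjusted p = 0.0302) and Impdh2 (0.71 ± 0.15, adjusted p = 0.0172) passed, while 0.0852% of all genes rose and 0.628% fell in that comparison (0.713% in all). Psat1 measured 161, 295 and 207 CPM in TIL Ebi3 Tregs, against 90.6, 144 and 120.03 CPM in TIL DN Tregs, and these groups did not overlap. Phgdh measured 158, 327 and 172 CPM in TIL Ebi3 Tregs, 74.9, 177 and 83.2 CPM in TIL IL10 Tregs and 88.8, 182 and 121 CPM in TIL DN Tregs, and the second library, of batch 2, was the highest in each. IL10 against Ebi3 Tregs gave 4 falls and 0 rises (background 1.07% lower, 2.84% in all): Phgdh (-0.92 ± 0.16), Impdh2 (-0.83 ± 0.15), Prps1 (-0.75 ± 0.15) and Nme1 (-0.61 ± 0.16). IL10 against DN Tregs gave 1 rise, Odc1 (0.77 ± 0.19, adjusted p = 0.041; background 0.837%). The median log2 fold change of the 38 members tested was 0.40 for Ebi3 over DN, with 34 positive, and -0.51 for IL10 over Ebi3, with 35 negative, against -0.0035 and 0.01 for all genes. These comparisons share libraries, and none of the 4 calls against DN Tregs passed once any 1 replicate was left out. Without replicate 3 the 4 falls of IL10 against Ebi3 Tregs also did not pass. Proliferation genes had a median log2 fold change of 0.84 for Ebi3 over DN and -0.83 for IL10 over Ebi3, though 0 and 1 of 26 passed by edgeR, and their part was not tested.

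In the node, Psat1, Phgdh, Pnp and Odc1 rose and Impdh1, Ampd1 and Mat2a fell in both IL10 and Ebi3 against DN Tregs. Both subsets are set against the same DN libraries, so their values stand side by side and are not separate evidence. In IL10 Tregs of the node 5 members rose and 5 fell (background 8.81% higher, 7.37% lower, 16.2% in all), among them Hprt (0.35), Impdh2 (-0.45) and Ampd3 (-1.72). In Ebi3 Tregs of the node 8 rose and 3 fell (background 6.96% higher, 6.07% lower, 13% in all), with Psph (0.65), Pfas (0.99), Paics (0.54) and Hprt (0.60) among the rises. Psat1 rose by 0.65 ± 0.18 in IL10 and 1.17 ± 0.18 in Ebi3 Tregs, Phgdh by 0.53 and 0.96, Odc1 by 0.94 and 1.17, and Pnp by 0.83 and 0.89. Impdh1 had log2 fold changes of -1.29 in IL10 and -1.01 in Ebi3 Tregs, Ampd1 of -5.02 and -4.46, and Mat2a of -0.71 and -0.54. Leaving out replicate 2 or 3 reduced the IL10 count to 5, and leaving out replicate 3 reduced the Ebi3 count to 6. Proliferation sums were 3902 CPM in IL10, 6337 CPM in Ebi3 and 1784 CPM in DN Tregs of the node. A sum of 11 myeloid genes ranged over 3.14 to 210.1 CPM in Ebi3 and 1.97 to 4.43 CPM in DN Tregs, the high value being 1 library. The part of either was not tested.

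In Tregs of the naive source, 3 members rose and 11 fell in IL10 against DN cells, and none of the 3 serine genes was among the falls (background 9.98% higher, 7.85% lower, 17.8% in all), with a median of -0.44 against 0.01 for all genes. Odc1 measured 51.9, 41.8 and 59.1 CPM in Naive IL10 Tregs, against 24.1, 19.03 and 17.8 CPM in Naive DN Tregs, and rose by 1.32 ± 0.20 (adjusted p = 1.6e-05). Impdh2 measured 82.97, 83.1 and 82.3 CPM in Naive IL10 Tregs, against 142, 168 and 140.3 CPM in Naive DN Tregs (-0.84 ± 0.15, adjusted p = 0.000161). Neither gene's groups overlapped. Adsl measured 132, 157 and 125 CPM in Naive IL10 Tregs, against 245, 226 and 199 CPM in Naive DN Tregs (-0.71 ± 0.14). Shmt2 measured 60.5, 103 and 52.9 CPM in Naive IL10 Tregs, against 101, 140.2 and 109 CPM in Naive DN Tregs (-0.75 ± 0.21), and Cad 27.3, 29.3 and 12.3 CPM in Naive IL10 Tregs, against 43.1, 41.96 and 29.3 CPM in Naive DN Tregs (-0.80 ± 0.26). Adsl did not overlap, the highest Cad library of IL10 cells lay just under the lowest of DN cells, and the Shmt2 groups overlapped. Ampd1 measured 0, 0 and 0.0701 CPM in Naive IL10 Tregs, against 9.74, 16.6 and 29.2 CPM in Naive DN Tregs (adjusted p = 4.4e-06). The other falls were Prps1 (-0.54), Impdh1 (-0.72), Uck2 (-0.85), Nme1 (-0.58), Srm (-1.06) and Mat2a (-0.60), and Pnp rose (0.77). Gda was called higher on 1 library, at 0, 0 and 2.45 CPM in Naive IL10 Tregs and 0 in all Naive DN libraries, and without replicate 3 its sign turned. The count was 9, 7 and 6 without replicates 1, 2 and 3. Proliferation sums stood at 3107 ± 1078 CPM in Naive IL10 and 1342 ± 186 CPM in Naive DN Tregs (SD, n = 3 each), and their part was not tested.

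Ebi3 Tregs of the naive source gave 5 rises and 3 falls against DN Tregs (background 7.4% higher, 5.45% lower, 12.8% in all). Psat1 (0.79 ± 0.18), Phgdh (0.57 ± 0.16), Mthfd2 (0.49 ± 0.16), Pnp (0.85 ± 0.16) and Odc1 (1.26 ± 0.20) rose, and Impdh1 (-0.96 ± 0.25), Ampd1 (-3.60 ± 0.81) and Mat2a (-0.67 ± 0.16) fell. The count was 5 without replicate 1 and 4 without replicate 3, and all 26 proliferation genes rose in the same comparison. DN Tregs against Teff cells gave 5 rises and 2 falls (background 8.79% higher, 3.42% lower, 12.2% in all). Psat1 measured 138, 134 and 122 CPM in Naive DN Tregs, against 59.7, 61.6 and 58.7 CPM in Teff cells, without overlap (1.17 ± 0.19, adjusted p = 5.5e-05). Phgdh (0.64), Prps1 (0.51), Hprt (0.44) and Pnp (0.51) also rose, and Impdh1 (-0.89) and Ampd3 (-1.65) fell, while the count was 2 without replicate 1 and 4 without replicate 3. Between ndLN and Naive Tregs of the same subset 0 members passed by edgeR in IL10, Ebi3 or DN cells (background 0.0542%, with 0.0465% higher, 0.00775% and 0.0852%), with 8, 7 and 1 members under an unadjusted p of 0.05 and 0 in each by DESeq2. Of all 12907 genes tested, 763, 613 and 959 had an unadjusted p under 0.05 by edgeR in the same order.

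**Figure D5:**
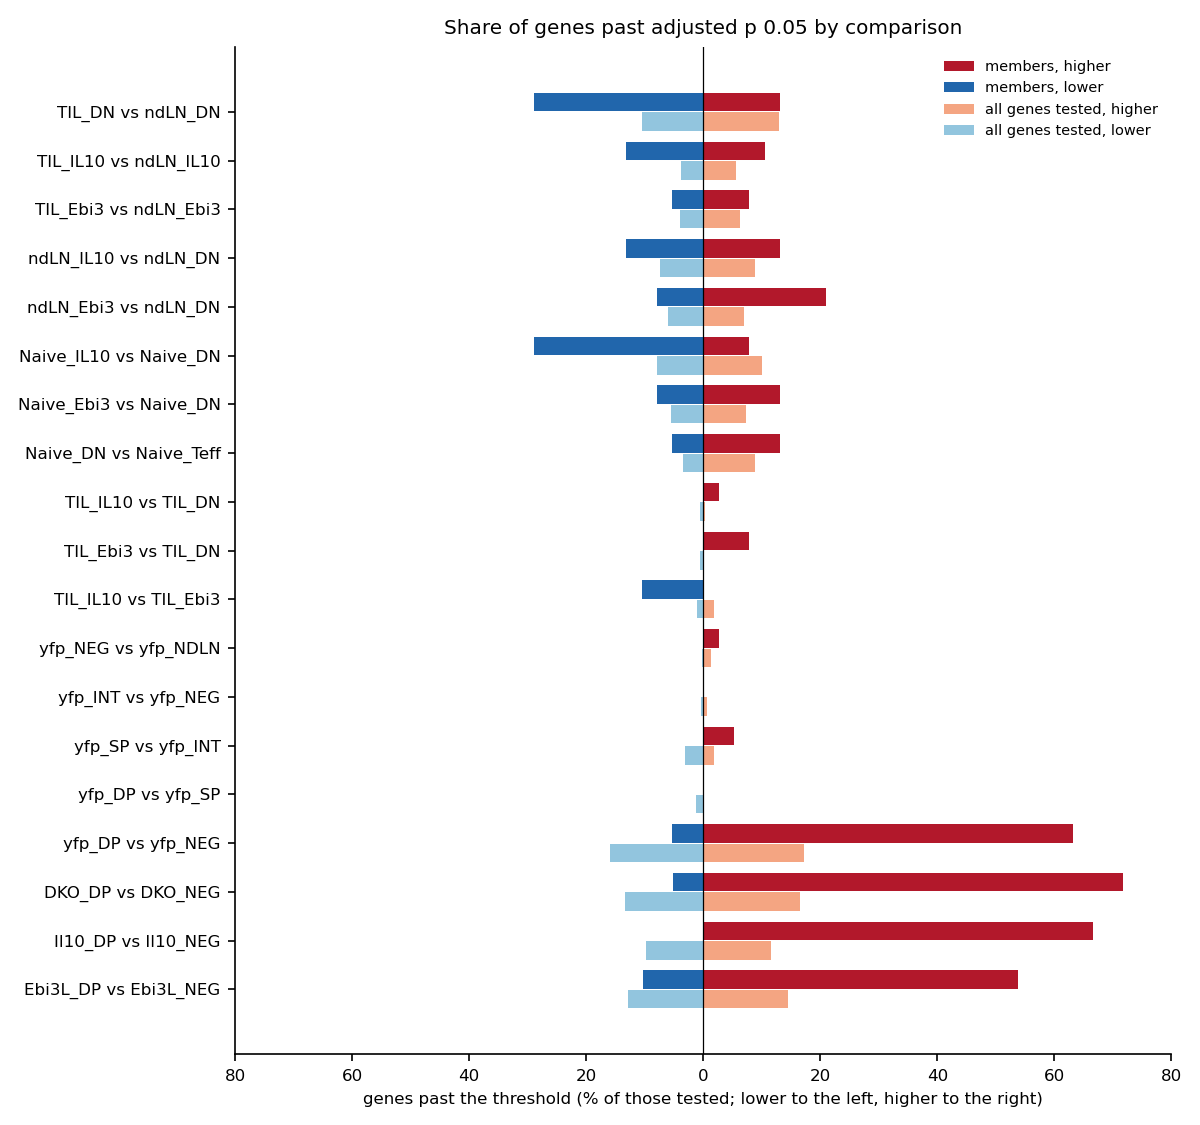
Bars give the percentage of genes tested that passed an adjusted p of 0.05, lower to the left and higher to the right, for the members (dark) and for all genes (pale) in each comparison (down). In DP against NEG cells the higher side holds 21 to 28 members, and 11.6 to 17.2% of all genes.

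Other genes of the same pathways, 67 in all and none of them a member, were read alongside. In DP against NEG cells 19 rose and 9 fell of 62 tested in DKO mice (background 16.6% higher, 13.3% lower). In Il10 mice 15 rose and 10 fell (background 11.6% and 9.69%), and in Ebi3L mice 15 and 10 (14.5% and 12.8%). In yfp mice 18 rose and 7 fell of 60 (background 17.2% and 16%). The median log2 fold change of these other genes was 0.26, 0.18, 0.22 and 0.31 in that order. Gldc, the glycine decarboxylase of the glycine cleavage system, rose most in each genotype, and Nt5e, the AMP-hydrolysing surface enzyme CD73, fell most. Gldc averaged 115 ± 21, 98.6 ± 95.5, 268 ± 119 and 124 ± 53.1 CPM in DP cells of DKO, Il10, Ebi3L and yfp mice, and 0.265 ± 0.335, 0.701 ± 0.991, 0.0559 ± 0.0969 and 0.0502 ± 0.0435 CPM in their NEG cells (SD). Nt5e had log2 fold changes of -3.25 ± 0.81 in DKO, -5.24 ± 1.32 in Il10, -3.42 ± 0.93 in Ebi3L and -3.81 ± 0.62 in yfp mice. Between tumour and node 12 rose and 7 fell of 58 in DN Tregs (background 12.9% higher, 10.5% lower). In IL10 Tregs 4 rose and 4 fell (background 5.56% and 3.77%), and in Ebi3 Tregs 6 and 6 (6.24% and 4.01%). Adssl1, a second adenylosuccinate synthetase, rose by 3.96 ± 0.70 in IL10, 4.16 ± 0.72 in Ebi3 and 3.33 ± 0.69 in DN Tregs. Nt5e fell in IL10 (-1.43 ± 0.21) and Ebi3 Tregs (-1.84 ± 0.21).

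The transcription factors Myc and Atf4, known to drive nucleotide and serine genes, were read as well, within a list of 16 regulators and related genes. Only transcript levels were read. In DP against NEG cells of yfp mice Asns rose (5.72 ± 1.56, adjusted p = 0.0181), Mxd1 (-1.87 ± 0.27) and Ddit3 (-2.07 ± 0.26) fell, and no other gene of that list passed. Atf4 was higher in NEG than in NDLN cells of yfp mice (0.78 ± 0.16, adjusted p = 0.0241). Myc was lower in DP than in NEG cells of DKO (-0.57 ± 0.20, adjusted p = 0.0422) and Ebi3L mice (-1.05 ± 0.23, adjusted p = 0.00395), with -0.39 ± 0.28 in Il10 and -0.26 ± 0.18 in yfp mice, which did not pass. Myc was lower in TIL than in ndLN DN Tregs (-1.19 ± 0.17, adjusted p = 6.9e-06) and in TIL IL10 than in TIL Ebi3 Tregs (-0.80 ± 0.17, adjusted p = 0.00859). Atf4 was higher in tumour than in node IL10 (0.79 ± 0.14), Ebi3 (0.64 ± 0.14) and DN Tregs (0.57 ± 0.14), all past the threshold, and in DP against NEG cells it passed in no genotype, with log2 fold changes of 0.29, 0.26, -0.30 and -0.31 in DKO, Il10, Ebi3L and yfp mice.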

How the data were processed

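RNA-seq libraries of double-sorted T cells were made with SMART-Seq v4 (Tregs) or v3 (CD8 T cells) and Nextera XT, per the labels' protocols. STAR was the aligner, featureCounts (Subread) the counter and mm10 the build, with limma also listed, per the submitters' processing notes, which give no versions. The authors deposited raw counts per gene and, for each series, filtered log2 values, whose differences from the counts are constant per gene and batch in the Treg table; no source used here gives that step's settings or says whether counting used strand.

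Levels are CPM, counts divided by the library's total. Comparisons used edgeR 4.0.16 on the counts as deposited (R 4.3.3; TMM, filterByExpr, robust quasi-likelihood fit), with Benjamini-Hochberg adjustment at 0.05 over all genes tested and the standard error taken as the log2 fold change over the square root of F. Treg libraries were fitted together with batch as a block, since the labels' batch is the replicate number: libraries of the same batch deviated together (median r 0.0955 over 135 pairs of libraries) and others did not (-0.0730 over 270). DP and NEG cells of DKO, Il10 and Ebi3L mice, and their differences from yfp, were fitted with the source as a block (12 sources, yfp included), and the yfp populations (DP against NEG included) and the genotypes with batch as a term. In yfp mice libraries of the same source gave a median r of 0.198 (27 of 30 pairs over 0.1), and the fit with the set, the source there, as a block is an alternative. The fits were tested on simulated counts. DESeq2 1.42.0, limma 3.58.1 on the deposited log2 values, other scaling, no filter, no replicate block and left-out replicates were alternatives. In no pair of libraries of a group did the counts agree within sampling noise (95 pairs).

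The members, roles and lists were chosen with earlier results of these data known. By name the text gives all members called where at most 12 were, otherwise at least the 2 of largest change in each role, with libraries' values in the 6 comparisons with most calls. Intervals and floors cover counting error only.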

Additional observations from a re-analysis of the deposited data

Results flagged for a closer look

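In the DKO groups, the only ones with 4 libraries, 1 library stood apart from the other 3 by Dixon's 95% criterion in 16 of 189 combinations of gene and population tested. Where the other 3 libraries are at 0, any count in 1 library meets the criterion, so the 16 cannot be set against a chance rate. This held for Aldh1l2, Gda and Ampd3 in DP cells, Gda in NDLN cells and Upp1, Aldh1l2 and Gda in SP cells. In NDLN cells replicate 3 was apart for Gmps (195 CPM), Hprt (179.8 CPM), Pnp (29.9 CPM) and Gda (0.0427 CPM), and replicate 2 for Psat1 (79.8 CPM). In INT cells Uck2 stood apart in replicate 2 (61.8 CPM), as did Aldh1l2 (1.48 CPM), and Adss in replicate 4 (158 CPM). In NEG cells Ampd2 was apart in replicate 1 (34.6 CPM) and Aldh1l2 in replicate 3 (2.56 CPM). In SP cells this held for Upp1 in replicate 2 (1.48 CPM), Aldh1l2 in replicate 4 (0.351 CPM) and Gda in replicate 1 (0.0841 CPM). In DP cells it held for Ampd3 in replicate 1 (1.46 CPM), Gda in replicate 3 (0.170 CPM) and Aldh1l2 in replicate 2 (0.0321 CPM).

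The change from node to tumour differed between Treg subsets by the interaction term for Impdh1 in IL10 against DN Tregs (a difference of 1.59 on the log2 scale) and for Ampd1 in IL10 (8.52) and Ebi3 (9.53) against DN Tregs. The Ampd1 differences rest on groups with all or most libraries at 0, so their size depends on the prior count and is no bound.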

How the results depend on the processing

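Counts of members past the threshold moved by over 1.5 times only where given here. With no replicate block the count was 5 for TIL against ndLN IL10 Tregs, 2 for TIL against ndLN Ebi3 Tregs, 0 for TIL IL10 against TIL DN, for TIL Ebi3 against TIL DN and for TIL IL10 against TIL Ebi3 Tregs, 5 for ndLN IL10 against ndLN DN, 7 for ndLN Ebi3 against ndLN DN, 8 for Naive IL10 against Naive DN, 4 for Naive Ebi3 against Naive DN, 1 for Naive DN against Teff and 1 for the IL10 minus DN difference in the tumour effect. With limma on the deposited log2 values it was 20 for TIL against ndLN IL10, 12 for TIL against ndLN Ebi3, 2 for TIL IL10 against TIL DN, 14 for TIL IL10 against TIL Ebi3 Tregs and 4 for the IL10 minus DN difference. With DESeq2 it was 12 for TIL IL10 against TIL Ebi3 Tregs, 5 for the IL10 minus DN difference, 1 for yfp INT against NEG, 6 for yfp SP against INT, 1 for yfp DP against SP and 1 each for DKO SP and Il10 SP against yfp SP and Ebi3L DP against yfp DP. Without the filter on low counts it was 3 for TIL against ndLN Ebi3 Tregs and 1 each for DKO SP and Il10 SP against yfp SP. With the set as replicate block yfp SP against INT gave 4.

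With each replicate left out in turn, counts ranged over 2 to 4 for TIL against ndLN Ebi3, 6 to 10 for TIL against ndLN IL10 and 12 to 13 for TIL against ndLN DN, over 0 to 0 for TIL IL10 against TIL DN and for TIL Ebi3 against TIL DN, and over 0 to 3 for TIL IL10 against TIL Ebi3 Tregs. They ranged over 5 to 7 for ndLN IL10 and 6 to 10 for ndLN Ebi3 against ndLN DN, 6 to 9 for Naive IL10 and 4 to 6 for Naive Ebi3 against Naive DN, 2 to 5 for Naive DN against Teff and 0 to 1 for both subsets' differences in the tumour effect. In CD8 T cells they ranged over 24 to 31 in DKO, 14 to 26 in Il10, 18 to 27 in Ebi3L and 14 to 24 in yfp mice for DP against NEG, 0 to 6 for yfp NEG against NDLN, 0 to 1 for yfp SP against INT, 0 to 3 for Il10 NEG against yfp NEG and 0 to 3 for the Il10 minus yfp difference in DP over NEG. Leaving out a replicate leaves fewer libraries; the cause of the other moves was not tested.

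Of 2254 alternative values over 201 called members, 1951 kept their direction and call, 302 lost the call and 1 changed sign: Gda in Naive IL10 against Naive DN Tregs, between -0.0059 and 7.33 on the log2 scale with a replicate left out. Groups of 2 to 4 libraries, and no statement of which mice gave them, limit what these tests can show, and genes under about 1 CPM rest on few counts.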
